A study of Sus scrofa with 3 samples.

Results

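Gene expression in cells labelled as bone marrow attached cells (BMAC) was compared with that in peripheral blood mononuclear cells (PBMC) of the pig, with 1 library for each population. The comparison takes in every gene that reached 10 CPM (counts per 1000000 of the library's total) in either library, which held for 7473 genes in both libraries, 2056 in BMAC alone and 1842 in PBMC alone, and so for 11371 of 26466 gene symbols. The remaining library of the series, BM-MSC, was made from mesenchymal stem cells of bone marrow and is given below only as a further value. Each library was made from 500 ng of Trizol-extracted RNA with a Lexogen QuantSeq kit, which reads a fragment next to the poly(A) tail. The labels name the species and the cell population and give no strain, genotype, sex, age, treatment, passage or animal for any library. They do not say whether the BMAC were cultured or how they were kept, and they give no gate or selection.

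Mononuclear cells of the blood are mostly lymphocytes with some monocytes, which circulate, carry antigen receptors or innate receptors and respond to cytokines made elsewhere. Cells of bone marrow that attach to a surface are known to include stromal cells, which lay down collagen-rich matrix, hold on to it through focal adhesions and secrete factors that act on blood cells. The families below are ordered along those roles: matrix and attachment, gene regulators, secreted signals and their receptors, signalling inside the cell, immune surface molecules, and metabolism and upkeep.

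A gene was called higher in a library when log2((CPM + 1)/(CPM + 1)) of BMAC over PBMC was at least 2 in size, which is a 4-fold difference once 1 CPM has been added to both sides, and the gene reached 10 CPM where it was higher. With 1 library a side no test was possible and no p-value is given, and population, animal and library preparation cannot be told apart. A fold is a ratio of CPM without pseudocount, followed in brackets by a 95% exact conditional interval that covers counting error only. A fold against a library with 0 counts was computed against 3 counts and is written "at least". In bulk RNA, fewer cells of a type and less RNA per cell cannot be told apart, so each value describes the population and not a cell.

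The libraries held 15122997 counts for BMAC and 15445903 for PBMC, so that 10 CPM stood for 151 and 154 counts. Rows of ribosomal RNA took 11.4% of the BMAC counts and 5.29% of the PBMC counts, and mitochondrially encoded genes 1.93% and 4.92%. The libraries also differed on chromosome Y. All 92 rows that the RefSeq table of Sscrofa11.1 lists there summed to 1490 CPM in BMAC, 473 CPM in PBMC and 792 CPM in BM-MSC. The 59 rows listed after XG, a split chosen after the values were seen, summed to 653 CPM in BMAC, 36.9 CPM in PBMC and 14.6 CPM in BM-MSC. Of the 12 at the floor 10 were called higher in BMAC and none in PBMC. EIF1AY, a Y-linked translation initiation factor, had 393 counts in BMAC, 9 in PBMC and 3 in BM-MSC, and LOC110257905 had 4001, 1 and 0. The BMAC library thus stands apart from both others in these rows, and whether it came from another animal is not given. The part that a difference between animals has in the values below was not tested.

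**Figure D1:**
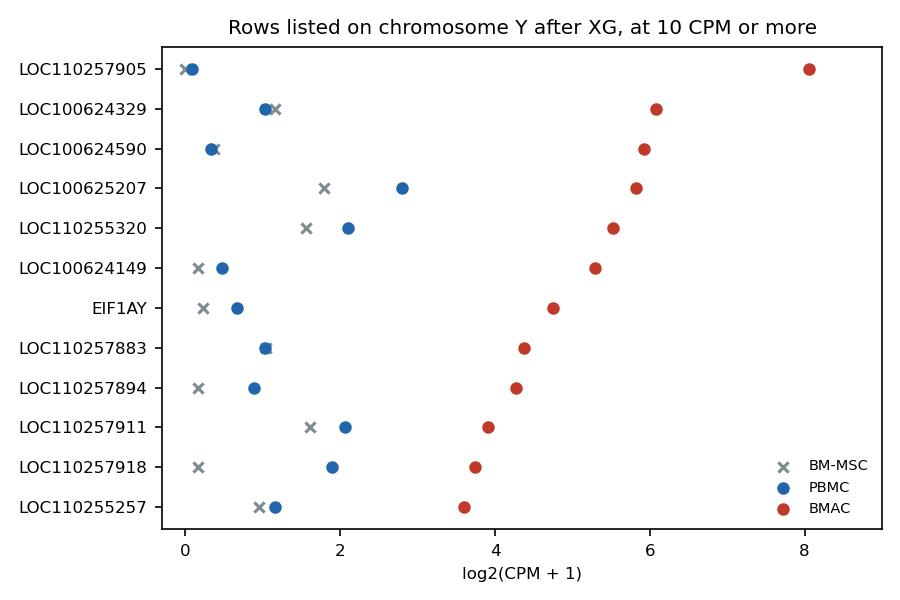
Expression, as log2(CPM + 1), of the 12 rows that the RefSeq table lists on chromosome Y after XG and that reached 10 CPM in BMAC or PBMC; each symbol is 1 library (red circle BMAC, blue circle PBMC, grey cross BM-MSC). The BMAC value lies to the right of the other libraries in all 12 rows, with EIF1AY at 26.0 CPM in BMAC and 0.583 CPM in PBMC.

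The label of the BMAC library was checked against markers of 17 cell types. All 7 fibroblast and stromal markers (COL1A1, COL1A2, COL3A1, DCN, LUM, PDGFRA and PDGFRB) reached the floor in BMAC and summed to 11467 CPM there, against 3.63 CPM in PBMC. In BM-MSC they summed to 13069.9 CPM, so they do not set BMAC apart from that library. None of the T cell, B cell, NK cell or neutrophil markers reached 10 CPM in BMAC. Their sums were 1.12, 4.56, 0.463 and 0.529 CPM in BMAC against 681, 2064.5, 109 and 57.0 CPM in PBMC. Of 5 monocyte markers CD14 alone passed the floor in BMAC, at 17.3 CPM against 12.9 CPM in PBMC, while LYZ and FCER1G were at 0 counts. The 5 summed to 17.6 CPM in BMAC and 419 CPM in PBMC. The endothelial markers summed to 32.2 CPM in BMAC and 164 CPM in PBMC, of which PECAM1 gave 27.7 CPM, and KDR was at 0 counts. Epithelial, erythroid and adipocyte markers each stayed under 10 CPM in BMAC and summed to 1.98, 1.12 and 1.98 CPM. The smooth muscle and pericyte markers summed to 199 CPM in BMAC, 10.2 CPM in PBMC and 6791 CPM in BM-MSC. The PBMC label fits the blood cell sums, and the BMAC library is marked by stromal genes with T cell, B cell, NK cell and neutrophil markers at or near 0. Of 4 dendritic cell markers TCF4 alone passed the floor in BMAC, at 247 CPM, and it had 168 CPM in BM-MSC and 345 CPM in PBMC. In each of 5 further types 1 marker alone passed the floor in BMAC. These were CTSK for osteoclasts (222 CPM in BMAC, 14.6 in PBMC), RUNX2 for osteoblasts (196 and 261 CPM), GATA2 for haematopoietic progenitors (40.8 and 0.388 CPM), GP9 for platelets (34.1 and 18.2 CPM) and SOX9 for chondrocytes (33.8 and 0 CPM).

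By the 4-fold rule 1591 genes (14.0%) were higher in BMAC and 1451 genes (12.8%) were higher in PBMC. The median log2 ratio over all 11371 genes was -0.12, and 48.8% of the genes lay within 2-fold of each other. Genes called higher in BMAC made up 29.0% of the BMAC counts and 1.75% of the PBMC counts, and those called higher in PBMC made up 26.2% of the PBMC counts and 2.55% of the BMAC counts. Differences past 64-fold after the pseudocount were seen in 186 genes toward BMAC and 167 toward PBMC, and 72 and 118 called genes had no count in the other library. In BM-MSC 1360 of the 1591 genes called higher in BMAC reached 10 CPM, a share close to that of genes called in neither direction, 7087 of 8329. Of the 1451 genes called higher in PBMC 438 did so. The median level of the genes called higher in BMAC was 63.5 CPM in BMAC, 46.9 in BM-MSC and 3.37 in PBMC. For the genes called higher in PBMC it was 2.45, 3.10 and 60.5 CPM in the same order. The calls depend on the scaling, since TMM factors moved the median of all genes up by 0.32 and gave 1844 and 1232 calls.

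**Figure D2:**
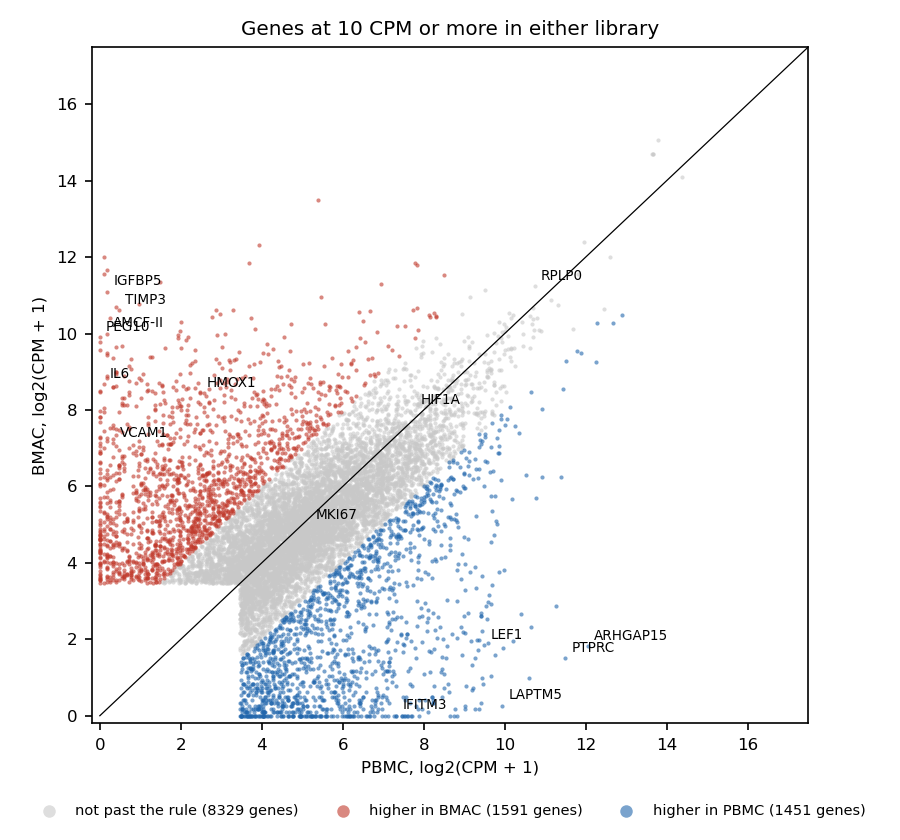
Each point is 1 of the 11371 genes at the floor, with log2(CPM + 1) in the PBMC library on the horizontal and in the BMAC library on the vertical axis; the line marks equal values. Red points are the 1591 genes called higher in BMAC, blue points the 1451 called higher in PBMC and grey points the other 8329 genes; the point for IGFBP5 lies near the top left at 2196 CPM in BMAC and 0.129 in PBMC, and that for PTPRC at the lower right at 1.85 CPM in BMAC and 2884 CPM in PBMC.

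Gene families lay on both sides and are given below by the number of members at the floor, the number called in each direction and the median log2 ratio. A member that reached the floor in only 1 library tended to differ for that reason, so the counts describe a family and support nothing further. Such members are counted beside the calls of many families. Of the families with at least 20 members at the floor, antigen receptor signalling genes and C-type lectins with their relatives had the lowest medians, and elastic fibre genes and collagens the highest. Ribosomal proteins (-0.06), splicing factors (-0.32) and replication genes (-0.28) had medians near the -0.12 of all genes.

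**Figure D3:**
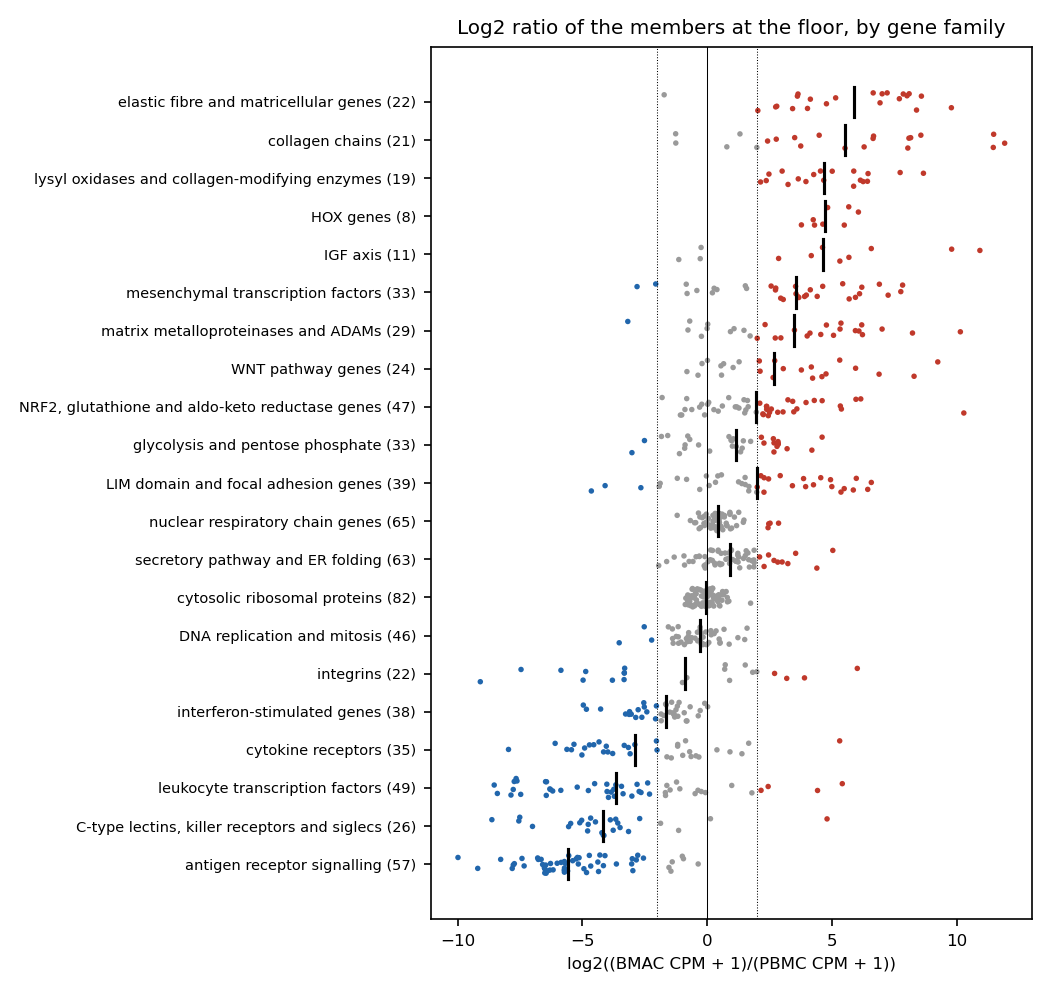
Log2 ratio of BMAC over PBMC, log2((CPM + 1)/(CPM + 1)), of each member at the floor in 21 families; the number of members is in brackets, the black bar is the family's median, and dotted lines mark the 4-fold rule. Red and blue points are members called higher in BMAC and PBMC; elastic fibre and matricellular genes have a median of 5.90 and antigen receptor signalling genes one of -5.59, while the 82 ribosomal proteins have no called member.

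The matrix of the BMAC library was broad in kind. In sum, collagen chains had 16527 CPM in BMAC, 382 in PBMC and 17993 in BM-MSC. Small leucine-rich proteoglycans had 3180, 52.2 and 3017 CPM in the same order, and elastic fibre and matricellular genes 22594.5, 491 and 11812 CPM. Of 22 elastic fibre and matricellular genes 21 were called higher in BMAC and none in PBMC, with 17 at the floor in BMAC alone. CTGF, a secreted partner of growth factors, had 880.4 CPM in BMAC and 0 CPM in PBMC, which makes it at least 4533-fold higher in BMAC, and the related NOV had 507 CPM in BMAC and 0.324 CPM in PBMC. Fibronectin (FN1), to which integrins bind, had 11465 CPM in BMAC and 41.0 CPM in PBMC, and thrombospondin 1 (THBS1) had 5103 CPM in BMAC and 14.2 CPM in PBMC. EMILIN2 was the exception in this family, with 196 CPM in PBMC and 58.8 CPM in BMAC, a difference under the rule. Of 9 small leucine-rich proteoglycans, which space collagen fibrils, 7 were higher in BMAC and none in PBMC, with 7 at the floor in BMAC alone. Fibromodulin (FMOD) had 1365 CPM in BMAC and 0.194 CPM in PBMC and was 7026-fold (2404 to 34074) higher, and lumican (LUM) had 152 CPM in BMAC and 0 CPM in PBMC. Among 21 collagen chains at the floor 16 were higher in BMAC and none in PBMC, with 17 at the floor in BMAC alone. COL12A1 and COL8A1 stood at 994 and 1078 CPM in BMAC, while COL19A1 had the higher value in PBMC, 217 against 90.0 CPM.

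The enzymes that build and trim this matrix went the same way. All 19 lysyl oxidases and collagen-modifying enzymes at the floor were higher in BMAC, 16 of them at the floor in BMAC alone, with a median of 4.67. SERPINH1, the collagen chaperone of the endoplasmic reticulum, had 457 CPM in BMAC and 0.129 CPM in PBMC, and LOXL2, which cross-links collagen, had 954 CPM in BMAC and 3.50 CPM in PBMC. Of 29 metalloproteinases, ADAMs and their inhibitors 19 were higher in BMAC and 1 in PBMC, with 14 at the floor in BMAC alone. TIMP3, an inhibitor of these proteases whose row overlaps SYN3, had 1569 CPM in BMAC and 0.388 CPM in PBMC, and MMP14, a membrane-bound collagenase, had 395 CPM in BMAC and 0.324 CPM in PBMC. Interstitial collagenase MMP1 had 144 CPM in BMAC, 0.129 in PBMC and 1.41 in BM-MSC. The sheddases ADAM10 and ADAM17, the latter overlapping IAH1, were close to equal in BMAC and PBMC. Serpins, by contrast, were split, with 3 of 9 higher in BMAC and 4 in PBMC. SERPINE2, a secreted inhibitor of thrombin, had 2627 CPM in BMAC and 1.81 CPM in PBMC, and SERPINB1, an inhibitor of granulocyte proteases, had 247 CPM in PBMC and 29.3 CPM in BMAC. The median of the serpins was -1.02, and it changed sign with TMM and median-of-ratios factors and at a floor of 50 CPM, where 4 serpins were left.

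SDC4, a membrane heparan sulphate proteoglycan of focal adhesions, had 197 CPM in BMAC and 0.583 CPM in PBMC, whereas serglycin (SRGN), the proteoglycan of leukocyte granules, had 616 CPM in PBMC and 13.9 CPM in BMAC. All 8 gap and tight junction genes at the floor were higher in BMAC, 6 of them at the floor in BMAC alone, with a median of 3.27. Connexin 43 (GJA1) had 7213 counts in BMAC and 2 in PBMC, 3684-fold (1019 to 30422) higher. Cadherins and protocadherins were mixed, with 6 of 19 higher in BMAC and 4 in PBMC, the latter 1 with a pseudocount of 5 CPM. PCDH17 and CDH11 stood at 472 and 346 CPM in BMAC against 0.518 and 1.55 in PBMC.

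Integrins, the receptors for matrix and for adhesion molecules of other cells, were called in both directions. Of 22 at the floor 10 were higher in PBMC and 4 in BMAC, with a median of -0.90 that became 0.71 among the 14 at a floor of 50 CPM. Of the 22, 10 reached 10 CPM in PBMC alone and 5 in BMAC alone. ITGA8, a receptor for fibronectin and related ligands, had 223 CPM in BMAC and 2.46 CPM in PBMC, and ITGB3 had 28.2 CPM in BMAC and 3.50 CPM in PBMC. The lymphocyte chains ITGB7 and ITGAL had 302 and 137 CPM in PBMC against 0.727 and 12.8 in BMAC. Tetraspanins, which organise such receptors in the membrane, split 5 to 4 among 19. CD151, a laminin receptor partner, had 305 CPM in BMAC and 2.01 CPM in PBMC, and the leukocyte member CD53 had 299 CPM in PBMC and 0.264 CPM in BMAC.

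Of 39 LIM domain and focal adhesion genes, which act inside the cell where integrins meet actin, 19 were higher in BMAC and 3 in PBMC. Kindlin-2 (FERMT2), an integrin activator, had 292 CPM in BMAC and 2.07 CPM in PBMC and was 141-fold (99.7 to 206) higher. Kindlin-3 (FERMT3), the form of blood cells, whose row overlaps TRPT1, had 89.1 CPM in PBMC and 4.30 CPM in BMAC, 20.7-fold (16.2 to 27.0) higher in PBMC. Of the parvins, which tie integrins to actin, PARVA had 376 CPM in BMAC and 3.37 CPM in PBMC and PARVG 47.0 CPM in PBMC and 0.926 CPM in BMAC. The unconventional myosins MYO1D and MYO1G, the latter overlapping LOC106506854, had 848 and 0.198 CPM in BMAC against 16.6 and 41.6 in PBMC. These pairs, and the ones in the plot of related genes, were chosen after their values were seen, because their members differed in opposite directions, so they say nothing of how common such pairs are.

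RAC2, a GTPase of blood cells that steers actin, had 3552 counts in PBMC and 2 in BMAC, while the widely expressed RAC1 was 1.68-fold (1.60 to 1.77) higher in BMAC, under the rule. The exchange factor DOCK1 had 415 CPM in BMAC and 34.1 CPM in PBMC, and DOCK2, which overlaps FAM196B and drives lymphocyte movement, had 661 CPM in PBMC and 2.98 CPM in BMAC. Of the intermediate filament genes, all 7 named in full here, LMNA had 799 CPM in BMAC and 7.06 CPM in PBMC and VIM 3698 CPM in BMAC and 219 CPM in PBMC. SYNM, which overlaps TTC23, and KRT7 were the other members higher in BMAC. LMNB1, LMNB2 and KRT10 were not called, with LMNB1 at 42.4 CPM in PBMC and 15.9 in BMAC.

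**Figure D4:**
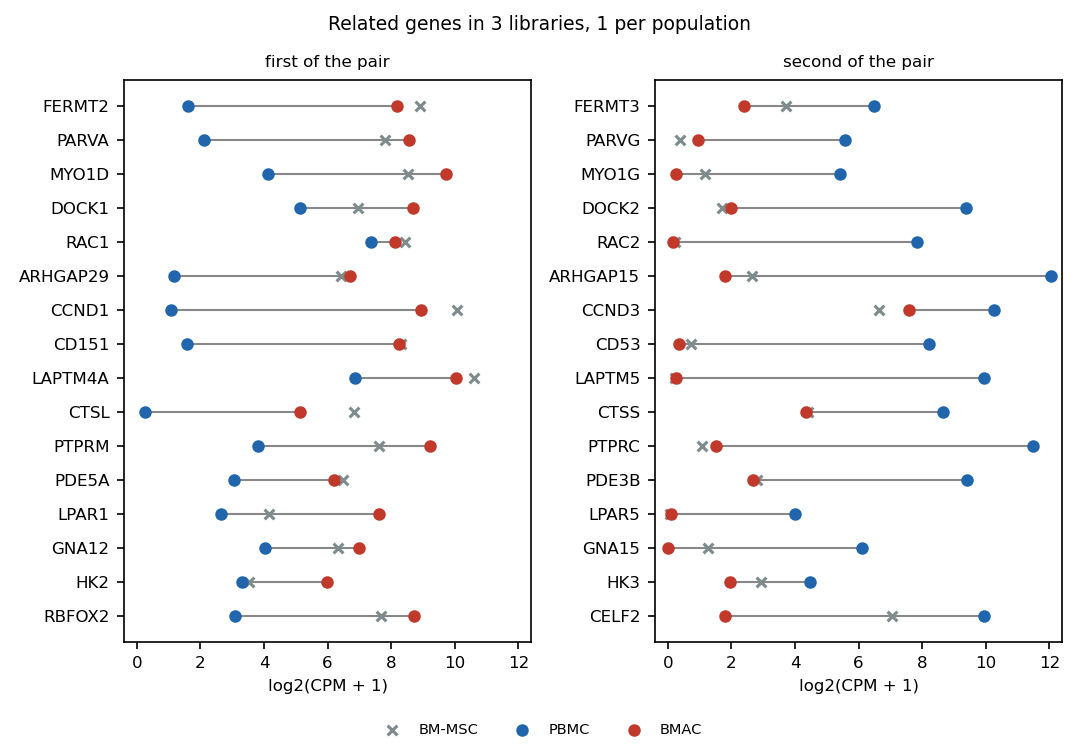
Level, as log2(CPM + 1), of 16 pairs of related genes, with the first gene of each pair in the left panel and the second in the same row of the right panel; each symbol is 1 library (red circle BMAC, blue circle PBMC, grey cross BM-MSC) and the line joins BMAC and PBMC. In the left panel BMAC lies to the right of PBMC in every pair and in the right panel to the left, as with FERMT2 (292 and 2.07 CPM) and FERMT3 (4.30 and 89.1 CPM); RAC1 is the pair member closest to equal.

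Cyclin D1 (CCND1), which drives entry into the cell cycle after growth factor signals, had 492 CPM in BMAC and 1.10 CPM in PBMC, 447-fold (279 to 768) higher in BMAC, while cyclin D3 (CCND3) had 1218 CPM in PBMC and 189.7 CPM in BMAC, 6.42-fold (6.17 to 6.68) higher in PBMC. CCND2 was 5.36-fold (4.84 to 5.93) higher in BMAC. The lysosomal membrane gene LAPTM4A had 1047 CPM in BMAC and 115 CPM in PBMC. Among the cathepsins CTSL and CTSV had 34.1 and 96.4 CPM in BMAC and 0.194 and 0 in PBMC, and CTSS and CTSW had 19.4 and 0.198 CPM in BMAC and 401 and 62.6 in PBMC. The RNA-binding splicing regulator RBFOX2 had 417 CPM in BMAC and 7.45 CPM in PBMC, and CELF2 had 988 CPM in PBMC and 2.45 CPM in BMAC. CELF2 was also at 131 CPM in BM-MSC, so that on this gene BMAC and BM-MSC lay far apart.

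Transcription factors lay on both sides. All 8 HOX genes at the floor, which keep positional identity in mesenchymal cells, were higher in BMAC with a median of 4.73, and all 8 reached the floor in BMAC alone. They came from the HOXA (HOXA3, HOXA5, HOXA9 and HOXA10), HOXC (HOXC6, HOXC8 and HOXC9) and HOXD (HOXD8) clusters, at 12.7 to 65.7 CPM. Rows of 7 of the 8 overlap another row in the annotation, HOXD8 being the exception, so that single values are uncertain. Of 33 mesenchymal transcription factors 23 were higher in BMAC and 2 in PBMC, with 23 at the floor in BMAC alone. At a floor of 50 CPM 11 and 2 of 18 were called. All 58 rows of the list summed to 6108 CPM in BMAC and 4942 CPM in PBMC, so the sums differed far less than the calls. TBX3 had 226 CPM in BMAC, 0 in PBMC and 8.85 in BM-MSC. PRRX2, a homeobox factor of limb and connective tissue, had 355 CPM in BMAC and 0.647 CPM in PBMC. The Hedgehog effector GLI3 had 231 CPM in BMAC and 3.50 CPM in PBMC, and HEY2, a Notch target, had 105 CPM in BMAC and 0.453 CPM in PBMC.

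Among 49 leukocyte transcription factors 33 were higher in PBMC and 4 in BMAC, with a median of -3.66 and 26 at the floor in PBMC alone. IKZF1, a zinc finger factor of lymphoid development, had 589 CPM in PBMC and 0.595 CPM in BMAC. PAX5, the B cell commitment factor, had 584 CPM in PBMC and 1.52 CPM in BMAC, and LEF1, a factor of T cells that binds beta-catenin, had 719.7 CPM in PBMC and 2.58 CPM in BMAC. FLI1 and ETS1, which lie in 1 run of neighbours, had 825 and 510.5 CPM in PBMC against 9.65 and 80.5 in BMAC. RUNX1 was shared, at 573 CPM in BMAC and 1225 in PBMC. Of the 7 SOX genes at the floor, SOX9, SOX11, SOX12, SOX6 and SOX4 were higher in BMAC and SOX13 in PBMC. With a pseudocount of 5 CPM SOX12 and SOX13 no longer passed, which left 4 and 0 calls, and at a floor of 50 CPM 2 and 0 of 3 were called. SOX9, the cartilage factor, and SOX11 had no counts in PBMC and 33.8 and 21.7 CPM in BMAC, while SOX5 was high in both, at 1348 CPM in BMAC and 1131 CPM in PBMC.

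Immediate-early and AP-1 genes, which respond within minutes to stimuli, went both ways, 10 of 40 toward BMAC and 7 toward PBMC. These were 5 and 2 with a pseudocount of 5 CPM, and 4 and 0 among the 17 at a floor of 50 CPM. IER3 had 673 CPM in BMAC and 1.42 CPM in PBMC, MAFF 165 CPM in BMAC and 1.29 CPM in PBMC and FOSL1 35.0 CPM in BMAC and 0.583 CPM in PBMC. FOS went the other way, at 22.1 CPM in PBMC and 1.92 CPM in BMAC, and JUND was level at 117 CPM in BMAC and 114 CPM in PBMC. The 141 numbered zinc finger genes had 11 members higher in BMAC and 8 in PBMC, shares below those of all genes in both directions. Under TMM and median-of-ratios factors the sign of their median changed.

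Among the secreted signals, chemokines and interleukins leaned to BMAC and their receptors to PBMC. Of 8 chemokines at the floor 6 were higher in BMAC, all 6 at the floor in BMAC alone, and 1 in PBMC. AMCF-II, the pig neutrophil chemoattractant of the CXC family, had 15474 counts in BMAC and 2 in PBMC, 7902-fold (2187 to 65257) higher, and 6.33 CPM in BM-MSC. CXCL8 had 75.5 CPM in BMAC, 0.194 in PBMC and 0.0586 in BM-MSC. CXCL14 and CXCL16 stood at 92.5 and 95.7 CPM in BMAC against 0.971 and 6.99 in PBMC. The exception was CCL5, a T and NK cell chemokine, with 139.7 CPM in PBMC and 4.43 CPM in BMAC. All 5 chemokine receptors called higher in PBMC (CCR7, XCR1, CCR6, CCR1 and CCR9) reached the floor in PBMC alone and were at 0.397 CPM or less in BMAC, with CCR7, the lymph node homing receptor, at 125 CPM in PBMC and 0 counts in BMAC. The rows of XCR1 and CCR1 overlap each other, and CCR9 overlaps LOC110256224. The scavenging receptor ACKR3 was the 1 receptor higher in BMAC, with 364 CPM in BMAC and 8.48 CPM in PBMC.

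Of 18 interleukins and IL-6 family ligands 8 were higher in BMAC and 4 in PBMC. IL11 had 173 CPM in BMAC, 0.0647 in PBMC and 10.9 in BM-MSC, and LIF had 30.1 CPM in BMAC, 0.129 in PBMC and 1.82 in BM-MSC. Both act through receptors that share IL6ST, which was read at 136 CPM in BMAC and 309.7 in PBMC and overlaps LOC102168151. IL15, a growth factor of NK and memory T cells, went to PBMC with 33.7 CPM in PBMC and 3.64 CPM in BMAC. Cytokine receptors leaned to PBMC, with 20 of 35 higher in PBMC and 1 in BMAC, a median of -2.90 and 18 at the floor in PBMC alone. IL7R, which overlaps LOC106508147, had 346 CPM in PBMC and 0.397 CPM in BMAC, IL2RB had 59.2 CPM in PBMC and 0.860 CPM in BMAC, and IL10RA had 191 CPM in PBMC and 3.44 CPM in BMAC.

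Ligand and receptor were set side by side for 11 pairs that were chosen after their values were seen. IL6 and its receptor IL6R had 409 and 25.7 CPM in BMAC and 0.0647 and 237 CPM in PBMC. CSF1, the growth factor of macrophages, had 53.0 CPM in BMAC and 2.14 in PBMC, and its receptor CSF1R had 0.132 CPM in BMAC and 44.7 CPM in PBMC. Stem cell factor (KITLG) and KIT were opposite in the same way, at 130.4 and 0.397 CPM in BMAC and 0.971 and 18.3 CPM in PBMC. VCAM1, an adhesion molecule for leukocytes, had 140.1 CPM in BMAC and 0.259 CPM in PBMC, and its counterpart chain ITGA4 had 687 CPM in PBMC and 0.264 CPM in BMAC. VCAM1 was at 1.05 CPM in BM-MSC. TEK, the receptor of ANGPT1 in the plot of these pairs, overlaps LOC102166359. Not all pairs were split: IL11RA, FLT1 and EGFR had higher values in BMAC along with their ligands IL11, VEGFA and AREG. EGFR had 144 CPM in BMAC and 1.68 CPM in PBMC, which is 85.6-fold (58.3 to 131) higher in BMAC.

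**Figure D5:**
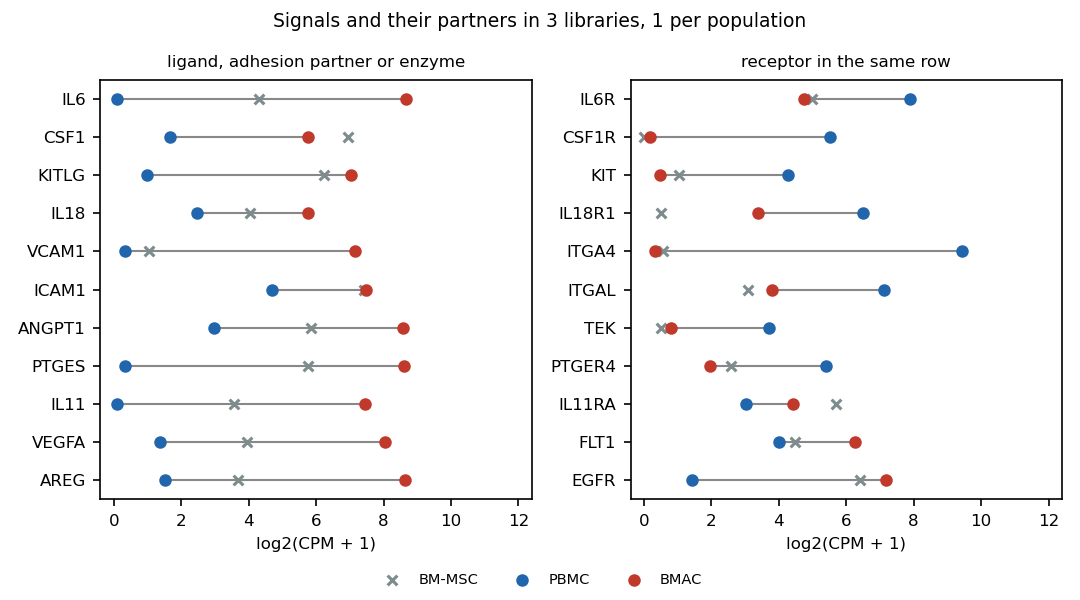
Level, as log2(CPM + 1), of 11 ligands, adhesion partners or enzymes (left) and of a receptor for each, or for its product, in the same row (right); each symbol is 1 library (red circle BMAC, blue circle PBMC, grey cross BM-MSC) and the line joins BMAC and PBMC. All 11 on the left have the higher value in BMAC; on the right PBMC is higher in the first 8 rows, such as IL6R at 237 and 25.7 CPM, and BMAC in the last 3, such as EGFR at 144 CPM in BMAC and 1.68 CPM in PBMC.

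The ligands of the epidermal growth factor receptor lay in a run of neighbouring genes with the chemokines. The run holds 9 rows from CXCL8 to BTC on chromosome 8 by the RefSeq order. A run takes only consecutive genes at the floor that share a call, so all 9 were higher in BMAC by definition. Amphiregulin (AREG) had 393 CPM in BMAC and 1.88 CPM in PBMC, epiregulin (EREG) 168 CPM in BMAC and 4.53 CPM in PBMC and betacellulin (BTC) 21.9 CPM in BMAC and 0.971 CPM in PBMC. In BM-MSC the 3 stood at 11.9, 9.14 and 3.98 CPM. The run also holds MTHFD2L, a mitochondrial folate enzyme, at 25.5 CPM in BMAC and 2.91 CPM in PBMC.

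TNF family members leaned to PBMC, with 11 of 25 higher there, or 7 with a pseudocount of 5 CPM, and 4 in BMAC. Of the 25, 13 reached the floor in PBMC alone and 7 in BMAC alone. TNFSF15 had 82.7 CPM in BMAC, 1.49 in PBMC and 0.352 in BM-MSC. LTB, which shapes lymphoid tissue, had 141 CPM in PBMC and 1.65 CPM in BMAC. Of 24 NF-kB genes 3 (12.5%) were higher in BMAC and 2 (8.33%) in PBMC, shares below the 14.0% and 12.8% of all genes. NFKBIA, the inhibitor that NF-kB itself induces, had 206 CPM in BMAC and 33.3 CPM in PBMC, and the subunit REL had 228 CPM in PBMC and 41.3 CPM in BMAC. No JAK-STAT or SOCS gene of 20 was higher in BMAC and 4 were higher in PBMC, among them STAT4 with 224 CPM in PBMC and 1.85 CPM in BMAC. The family's count in PBMC fell to 2 with TMM factors, where STAT2 and STAT5B no longer passed.

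Growth factor systems were a further difference. Of 11 members of the insulin-like growth factor axis 8 were higher in BMAC and none in PBMC, with 6 at the floor in BMAC alone. IGFBP5 had 33209 counts in BMAC and 2 in PBMC, 16959-fold (4694 to 140042) higher, and IGFBP2 had 1749 CPM in BMAC and 0.971 CPM in PBMC. PAPPA and HTRA1, proteases that cut such binding proteins, had 448 and 397 CPM in BMAC against 7.77 and 3.17 in PBMC. The receptor IGF1R had 366 CPM in BMAC and 49.5 CPM in PBMC and the adaptor IRS1 75.3 CPM in BMAC and 3.24 CPM in PBMC. IGFBP6 and IGFBP7, the latter overlapping POLR2B, complete the 8, while INSR, IRS2 and IGF2R were not called.

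Of 24 WNT pathway genes 15 were higher in BMAC and none in PBMC, with 13 at the floor in BMAC alone and 1 in PBMC alone. The secreted antagonists SFRP1 and SFRP4 had 1263 and 798 CPM in BMAC against 3.04 and 0.324 in PBMC. WNT5A, which overlaps LOC102162847, had 117 CPM in BMAC, 0 in PBMC and 7.21 in BM-MSC, and WLS, the carrier that WNT proteins need for secretion, had 5647 counts in BMAC and 294 in PBMC. Of 35 TGF-beta and BMP genes 12 were higher in BMAC and 3 in PBMC, with 11 at the floor in BMAC alone and 2 in PBMC alone. The antagonist CHRDL1 had 197 CPM in BMAC and 2.33 CPM in PBMC, and FSTL1 had 567 CPM in BMAC and 0.647 CPM in PBMC. TGFB1 went the other way with 143 CPM in PBMC and 14.0 CPM in BMAC, as did the receptor ACVRL1 with 60.5 CPM in PBMC and 0.132 CPM in BMAC. The receptor TGFBR2 was shared, at 346 CPM in BMAC and 481 CPM in PBMC.

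Among FGF, EGF, HGF and PDGF genes 15 of 24 were higher in BMAC and 2 in PBMC, with 13 at the floor in BMAC alone and 2 in PBMC alone. PDGFRB, a receptor of mural and stromal cells, had 319 CPM in BMAC and 0.518 CPM in PBMC, and ERBB4 had 203 CPM in PBMC and 19.9 CPM in BMAC. Of 25 VEGF, angiopoietin, Notch and endothelin genes 13 were higher in BMAC and 5 in PBMC. Of the 25, 12 were at the floor in BMAC alone and 5 in PBMC alone. The lymphatic growth factor VEGFC had 441 CPM in BMAC and 1.04 CPM in PBMC, adrenomedullin (ADM) 73.3 CPM in BMAC and 0.129 CPM in PBMC, and the Notch modifier MFNG 30.5 CPM in PBMC and 0 CPM in BMAC. Guidance genes leaned to BMAC with 14 of 31 against 5, and 14 were at the floor in BMAC alone and 5 in PBMC alone. SLIT2, a secreted repellent, had 997 CPM in BMAC and 6.47 CPM in PBMC and SEMA3C 1456 CPM in BMAC and 6.80 CPM in PBMC, while EPHB6 had 348 CPM in PBMC and 1.32 CPM in BMAC. The thyrotropin-releasing hormone gene TRH had 661 CPM in BMAC, 0.259 in PBMC and 3.63 in BM-MSC.

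Prostaglandin and lipid mediator genes were divided evenly, 9 of 28 to each side, with 8 at the floor in BMAC alone and 11 in PBMC alone. PLA2G4A, which releases arachidonic acid and overlaps PTGS2, had 652 CPM in BMAC and 52.2 CPM in PBMC. PTGS1, which makes prostaglandin H, had 81.4 CPM in BMAC and 0.388 CPM in PBMC, and PTGES, which turns it into prostaglandin E, had 385 CPM in BMAC and 0.259 CPM in PBMC. TBXAS1, which makes thromboxane and overlaps LOC106508202, had 137 CPM in PBMC and 3.04 CPM in BMAC. The prostaglandin D receptor PTGDR had 259.6 CPM in PBMC and 6.74 CPM in BMAC and the E receptor PTGER4 41.1 CPM in PBMC and 2.91 CPM in BMAC. The sphingosine phosphate receptor S1PR1, which lets lymphocytes leave tissue, had 298 CPM in PBMC and 5.42 CPM in BMAC, the lysophosphatidic acid receptor LPAR1 194 CPM in BMAC and 5.24 CPM in PBMC, and the leukotriene receptor CYSLTR2 133 CPM in BMAC and 11.2 CPM in PBMC.

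Genes of signalling downstream of antigen receptors lay far on the blood side. Of 57 genes 51 were higher in PBMC and none in BMAC, with a median of -5.59 and 42 at the floor in PBMC alone. PTPRC (CD45), the phosphatase that permits antigen receptor signalling, had 44539 counts in PBMC and 28 in BMAC, 1557-fold (1077 to 2344) higher. The kinase PRKCB had 1343 CPM in PBMC and 5.36 CPM in BMAC and the adaptor SKAP1 1187 CPM in PBMC and 2.84 CPM in BMAC. FYN, a kinase of many tissues, and BCL10 were among the 6 not called, FYN at 675 CPM in PBMC and 246 in BMAC. All 6 GIMAP genes at the floor, GTPases of lymphocyte survival, were higher in PBMC and reached the floor in PBMC alone, from GIMAP1 at 436 CPM in PBMC and 0.132 CPM in BMAC to GIMAP8, which overlaps LOC110257569, at 26.1 CPM in PBMC and 0 CPM in BMAC.

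Other signalling families had calls in both directions. Protein tyrosine phosphatases had 9 of 28 higher in BMAC and 9 in PBMC. The cell contact phosphatase PTPRM had 592 CPM in BMAC and 13.1 CPM in PBMC and PTPN6 (SHP-1), a brake of blood cell receptors, had 125 CPM in PBMC and 1.39 CPM in BMAC. Of 38 phosphodiesterase, adenylyl cyclase and protein kinase A genes 8 were higher in BMAC and 9 in PBMC. PDE3B and PDE7A, which degrade cAMP, had 682 and 338 CPM in PBMC against 5.42 and 4.03 in BMAC. The kinase anchor AKAP12 had 599 CPM in BMAC and 3.82 CPM in PBMC. Of 33 RGS and G protein genes 8 were higher in BMAC and 9 in PBMC. The inhibitory G protein subunit GNAI1 had 64.8 CPM in BMAC and 1.04 CPM in PBMC. RGS1, RGS14 and GNA15 had no counts in BMAC and 47.0, 75.8 and 67.3 CPM in PBMC, while GNAI2 was shared at 472 CPM in BMAC and 612 CPM in PBMC.

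Receptors of the GPR, adhesion and purinergic families had 15 of 55 members higher in BMAC, or 8 with a pseudocount of 5 CPM, and 18 in PBMC. P2RY2, a receptor for extracellular ATP, had 76.4 CPM in BMAC and 0.906 CPM in PBMC, and GPR174 had 122 CPM in PBMC and 0.264 CPM in BMAC. Ion channels split 15 to 17 among 77. The voltage-gated calcium channel CACNA1D had 389 CPM in BMAC, 7.70 in PBMC and 4.98 in BM-MSC, whereas KCNA3, the potassium channel of T cells, had 1448 counts in PBMC and 0 in BMAC. The endoplasmic calcium pump of blood cells, ATP2A3, had 85.6 CPM in PBMC and 0.198 CPM in BMAC. The medians of these receptors, channels, RGS genes and NF-kB genes lay close to 0 and changed sign with TMM and median-of-ratios factors.

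Most immune surface molecules named here were at or near 0 in BMAC. Of 54 CD-numbered genes at the floor 34 were higher in PBMC and 5 in BMAC, with 33 at the floor in PBMC alone. CD52, CD48, CD74 and CD69 had no counts in BMAC and 235, 209, 191 and 157 CPM in PBMC. CD44, the hyaluronan receptor, was shared at 509 CPM in BMAC and 456 in PBMC. Of 26 C-type lectins, killer receptors, Fc receptors and siglecs 22 were higher in PBMC, with 23 of the 26 at the floor in PBMC alone, and CLEC11A, a secreted growth factor of bone, was the 1 member higher in BMAC, with 59.4 CPM in BMAC and 1.17 CPM in PBMC. CLEC2D had 707 CPM in PBMC and 0.793 CPM in BMAC and the adaptor TYROBP 223 CPM in PBMC and 0.198 CPM in BMAC. All 14 rows of immunoglobulin and T cell receptor constant regions at the floor were higher in PBMC.

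Class I and class II antigen presentation differed in degree. Of 35 MHC and antigen processing genes 22 were higher in PBMC and 1 in BMAC, with 16 at the floor in PBMC alone. SLA-DRA, a class II chain, had 6667 counts in PBMC and 0 in BMAC. The class I heavy chain SLA-1, which overlaps LOC100513601, stood at 739 CPM in BMAC and 3538 in PBMC, past the rule by library totals but under it with TMM (log2 ratio -1.98) and median-of-ratios (-1.93) factors, which each left 20 calls in PBMC. B2M, its light chain, was under the rule at 354 CPM in BMAC and 1053 CPM in PBMC. Class I SLA genes are close paralogues, so reads may be split between them and single values are uncertain. NLRC5, the activator of class I genes, had 514 CPM in PBMC and 3.50 CPM in BMAC. Calreticulin (CALR), a chaperone of class I chains and of other glycoproteins, was the member higher in BMAC, with 952 CPM in BMAC and 221 CPM in PBMC.

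Interferon-stimulated genes and pattern recognition receptors were lower in BMAC with no exception among those called. Of 38 interferon-stimulated genes 15 were higher in PBMC and none in BMAC, with a median of -1.65 and 19 at the floor in PBMC alone. MX2 had 61.1 CPM in PBMC and 0.992 CPM in BMAC, PARP14 82.4 CPM in PBMC and 1.92 CPM in BMAC and GBP1 259 CPM in PBMC and 12.5 CPM in BMAC. IFITM3, named after its values were seen, had 0 counts in BMAC, 2463 in PBMC and 6637 in BM-MSC. On this gene the BMAC library differed from both others, and population, animal and library preparation cannot be told apart as the source. Of 25 pattern recognition genes 12 were higher in PBMC, or 6 with a pseudocount of 5 CPM, among them TLR8 with 47.5 CPM in PBMC and 0.132 CPM in BMAC. In PBMC alone 10 of the 25 reached the floor.

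Complement and clotting genes were called in both directions. Of 26 at the floor 13 were higher in BMAC and 8 in PBMC, with 12 at the floor in BMAC alone and 8 in PBMC alone. The secreted proteases MASP1 and C1S had 353 and 141 CPM in BMAC against 1.94 and 0 in PBMC. The receptor C5AR1 had 82.9 CPM in PBMC and 0.264 CPM in BMAC and the membrane regulators CD46 and CD55 had 525 and 143 CPM in PBMC against 107 and 24.6 in BMAC. Tissue factor (F3), which starts clotting, had 32.5 CPM in BMAC and 0.518 CPM in PBMC, and F13A1, which cross-links fibrin, had 271 CPM in PBMC and 4.50 CPM in BMAC. The acute-phase gene SAA3 had 718 CPM in BMAC and 0.129 CPM in PBMC, 5546-fold (1535 to 45800.4) higher in BMAC, and 4.45 CPM in BM-MSC, while lysozyme (LYZ) had 1475 counts in PBMC and 0 in BMAC. Of 24 S100, annexin and galectin genes 9 were higher in BMAC and 4 in PBMC, with S100A2 at 161 CPM in BMAC and 0.324 CPM in PBMC and LGALS3 at 272 CPM in BMAC and 2.91 CPM in PBMC. LGALS9 had 26.4 CPM in PBMC and 0.264 CPM in BMAC.

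Glycolysis genes that were called lay mostly on the BMAC side. Of 33 glycolysis and pentose phosphate genes 12 were higher in BMAC and 2 in PBMC. These were 10 and 0 with a pseudocount of 5 CPM, and 10 and 0 among the 23 at a floor of 50 CPM. Pyruvate kinase (PKM) had 1634 CPM in BMAC and 226 CPM in PBMC, 7.23-fold (6.98 to 7.49) higher, and TPI1 had 112 CPM in BMAC and 11.3 CPM in PBMC. SLC2A1, the glucose carrier, which overlaps ZNF691, had 98.9 CPM in BMAC and 3.11 CPM in PBMC. The lactate exporter SLC16A3 had 68.3 CPM in BMAC, 2.78 in PBMC and 2.34 in BM-MSC, and the high-affinity carrier SLC16A7 had 17.2 CPM in PBMC and 1.26 CPM in BMAC. Hexokinases were split, HK2 at 62.2 CPM in BMAC and 8.87 CPM in PBMC and the myeloid HK3 at 21.3 CPM in PBMC and 2.91 CPM in BMAC. Of 25 genes of the hypoxia response 11 were higher in BMAC and none in PBMC, with NDRG1 at 649 CPM in BMAC and 98.1 CPM in PBMC, while HIF1A itself was level at 255 CPM in BMAC and 219 CPM in PBMC.

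Mitochondrially encoded genes were called toward PBMC alone and nuclear genes of the respiratory chain toward BMAC alone, the latter less often than all genes. Of 13 mitochondrially encoded genes 6 were higher in PBMC and none in BMAC, such as ND3 with 4927 CPM in PBMC and 610.5 CPM in BMAC and COX2 with 7662 CPM in PBMC and 1443 CPM in BMAC. COX1 was not, at 5397 CPM in BMAC and 3989 in PBMC. Of 65 nuclear genes for the respiratory chain 4 were higher in BMAC and none in PBMC, with NDUFB5 at 29.3 CPM in BMAC and 3.17 CPM in PBMC. With TMM factors ATP6, which overlaps COX3, and CYTB no longer passed.

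Redox and iron genes were higher in BMAC in 23 of 47 cases and in PBMC in none, with 16 at the floor in BMAC alone and 2 in PBMC alone. AKR1CL1, an aldo-keto reductase, had 1647 CPM in BMAC and 0.324 CPM in PBMC, 5089-fold (2180.4 to 15674) higher. The haem-degrading enzyme HMOX1 had 347 CPM in BMAC and 4.60 CPM in PBMC, and SRXN1, which repairs oxidised peroxiredoxin, had 137 CPM in BMAC and 2.33 CPM in PBMC. Ferritin chains FTL and FTH1 had 3578 and 2989.7 CPM in BMAC against 229 and 363 in PBMC. The iron exporter ferroportin (SLC40A1) had 303 CPM in BMAC and 2.78 CPM in PBMC, 109-fold (80.8 to 151) higher, while SLC11A1, the metal carrier of phagocyte vesicles, had 65.7 CPM in PBMC and 0.992 CPM in BMAC. Solute carriers as a whole were balanced, with 22 of 175 higher in BMAC and 24 in PBMC, shares near those of all genes. Of 62 lysosomal genes 12 were higher in BMAC and 5 in PBMC, with the cholesterol carrier NPC2 at 242 CPM in BMAC and 16.4 CPM in PBMC. Cholesterol and fatty acid genes showed 3 (8.82%) and 4 (11.8%) calls among 34, shares below those of all genes. Their median changed sign with TMM and median-of-ratios factors and without ribosomal RNA and mitochondrial genes.

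Genes of protein making and upkeep held few calls. None of 82 cytosolic ribosomal proteins was called in either direction, and RPLP0 had 2436 CPM in BMAC and 1710.2 CPM in PBMC. No proteasome gene of 42 was higher in BMAC, and the 2 higher in PBMC were the immunoproteasome subunits PSMB8, with 82.6 CPM in PBMC and 6.48 CPM in BMAC, and PSMB9. Splicing factors had 3 and 2 calls among 74. Of 63 secretory genes 10 were higher in BMAC, close to the share of all genes, and none in PBMC. KDELR3, which returns proteins to the endoplasmic reticulum, had 59.3 CPM in BMAC and 0.842 CPM in PBMC, and CREB3L1, a factor that induces secretion genes, 70.4 CPM in BMAC and 5.11 CPM in PBMC. HSPA5, the main chaperone there, was under the rule at 484 CPM in BMAC and 204 CPM in PBMC. Of 86 translation and amino acid response genes 11 were higher in BMAC, also close to the share of all genes, and none in PBMC. The serine synthesis enzymes PSAT1 and PHGDH had 317 and 87.7 CPM in BMAC against 1.04 and 1.36 in PBMC, and CHAC1, a glutathione-degrading stress gene, had 85.7 CPM in BMAC and 0.129 CPM in PBMC.

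Replication genes held few calls, and some inhibitors of the cell cycle were higher in BMAC. Of 46 DNA replication and mitosis genes none was higher in BMAC and 3 were higher in PBMC: E2F2, CDC25B and HMGB2, the last of which no longer passed with TMM factors. MKI67, a gene of cycling cells, had 30.9 CPM in BMAC, 35.2 in PBMC and 2.52 in BM-MSC. CDKN1A (p21), an inhibitor of cyclin-dependent kinases, had 227 CPM in BMAC and 8.42 CPM in PBMC, CDKN1C (p57) 33.3 CPM in BMAC and 0.583 CPM in PBMC, and PHLDA3, a target of p53, 494 CPM in BMAC and 0.324 CPM in PBMC. Among survival genes BCL2 had 427 CPM in PBMC and 34.6 CPM in BMAC, 12.3-fold (11.3 to 13.5) higher in PBMC, and MCL1 was under the rule at 260.4 CPM in BMAC and 132 CPM in PBMC. Of 15 imprinted genes PEG10, SGCE, DIRAS3 and CDKN1C were higher in BMAC, and KCNQ1 and NAP1L5, the latter overlapping HERC3, were higher in PBMC, with a median of -0.61. With a pseudocount of 5 CPM neither of the PBMC calls passed. PEG10 had 14453 counts in BMAC and 0 in PBMC, and 6156 CPM in BM-MSC. Its neighbour SGCE had 54.5 CPM in BMAC and 0.453 CPM in PBMC.

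Some called genes also lay next to each other. Genes at the floor with a chromosome were put in the order of the RefSeq table. There were 79 runs of 3 or more consecutive genes higher in BMAC, with 290 of the 1591 called genes. Another 99 runs were higher in PBMC, with 391 of the 1451. Most called genes thus lay outside such runs. Some runs arise when 14.0% and 12.8% of all genes are called, and whether these exceed that number was not tested. Among the longest BMAC runs were the one from CXCL8 to BTC, 9 rows from XG onward on Y, and 7 rows of the HOXA cluster on chromosome 18. Runs of 9 rows each in PBMC were the GIMAP genes on chromosome 18, the killer lectin segment from CLEC7A to KLRG1 on chromosome 5, and 2 segments of the class II region on chromosome 7. A run of 8 rows on chromosome 4 from ARHGAP30 to SLAMF6 held the SLAM family receptors CD244, LY9, CD48, SLAMF1, CD84 and SLAMF6. The longest PBMC run, of 10 rows on chromosome 4, ended with the interferon-induced GTPases GBP2 and GBP1. Neighbours can share reads where rows overlap, and 371 of the 1591 and 337 of the 1451 called genes overlap a row that holds at least 25% of their count.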

How the data were processed

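Poly(A)-primed 3' end libraries were compared for BMAC and PBMC, 1 library each, with BM-MSC as a further value. The authors deposited unnormalised counts, 1 per annotation row: the values are whole numbers whose totals differ between libraries. Bowtie2 and bedtools were used by the authors, per the submitters' processing notes. Build, annotation, strand setting and treatment of multiply mapped reads were not given in the sources used here. A 3' count depends on how well annotated ends match the transcripts and is not scaled by length, so levels were compared between libraries and not between genes.

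Rows with the same symbol were summed (81 symbols), giving 26466 symbols, all of which are in the RefSeq table of Sscrofa11.1. That table was used for names, gene order and overlaps only, the last 2 without genes on unplaced scaffolds. CPM were computed as counts over the library total times 1000000 with Python 3.11.15, pandas 2.3.3 and scipy 1.17.1. Where an overlapping row holds 25% or more of a gene's count, both are named. PCR duplicates could not be told apart from molecules, so intervals cover counting error only. The rule was checked on simulated counts. Alternatives covered the pseudocount, the floor, scaling by TMM factors (edgeR 4.0.16 in R 4.3.3) or by median-of-ratios size factors, and the rows left out.

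The gene lists (73) and the rules were chosen with earlier results of these data known. The text names, of each list, up to 4 called members with the largest ratios, the highest member in each library and the one nearest to equal, all members of lists with 12 or fewer at the floor, the 15 genes with the largest ratio and the 15 highest in each library, and genes in runs of neighbours. Outside this rule and the cell type markers, genes of the paired comparisons and B2M, CCND2, COL12A1, COL8A1, FOS, GNAI1, HK2, HK3, IFITM3, IL15, ITGB3, KCNQ1, LIF, MKI67, NAP1L5, PTGDR, REL and TGFB1 were chosen after their values were seen. Results for some genes and 1 list are not reported here.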

Additional observations from a re-analysis of the deposited data

How the results depend on the processing

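No value has a replicate behind it, and labels do not tie the libraries to animals, so only choices of processing could be varied. The count of 1591 genes higher in BMAC was 907 at a floor of 50 CPM, and the 1451 higher in PBMC were 811 at that floor, where fewer genes (5162) were compared; under the other 8 alternatives both counts stayed within 1.5 times. A pseudocount of 5 CPM gave 1147 and 1053 genes. TMM factors gave 1844 and 1232, so that 59.95% of the calls were higher in BMAC against 52.3% with library totals, and moved the median of all genes by 0.32. Median-of-ratios factors gave 1908 and 1205, or 61.29%, with a shift of 0.38. Of the 920 named genes past the rule, 589 passed at the floor of 50 CPM, 763 with the pseudocount of 5 CPM, 870 with TMM factors and 867 with median-of-ratios factors, and none changed direction under any alternative. Among the family lists, calls higher in BMAC moved by over 1.5 times in 19 lists and calls higher in PBMC in 30 of 72 at the floor of 50 CPM, where fewer members were compared, such as mesenchymal transcription factors (from 23 to 11 in BMAC) and C-type lectins (from 22 to 6 in PBMC). The medians of the acute-phase (1.36), integrin (0.71), serpin (6.95) and solute carrier (-0.52) lists had the reverse of their main sign there. With a pseudocount of 5 CPM this held for 6 and 15 of 73 lists, and no median changed sign. Calls in BMAC went from 10 to 5 for immediate-early genes, 11 to 7 for zinc finger genes, 15 to 8 for GPCRs, 15 to 9 for channels, 4 to 2 for nuclear respiratory genes and 7 to 4 for heat shock genes. Calls in PBMC went from 12 to 6 for pattern recognition genes, 11 to 7 for TNF genes, 8 to 2 for zinc finger genes, 7 to 2 for immediate-early genes and from 4 or fewer to 2 or fewer for the other 11 lists. Without overlapping rows 6 and 8 lists moved, among them elastic fibre genes (from 21 to 12 in BMAC), HOX genes (8 to 1), hypoxia genes (11 to 6), tubulins (3 to 0) and GIMAP genes (6 to 3 in PBMC), and the medians of the GPCR and lipid mediator lists changed sign. At a floor of 5 CPM chemokine receptors higher in PBMC went from 5 to 11, and the medians of the cholesterol and solute carrier lists changed sign. The medians of the GPCR, NF-kB, RGS, channel, cholesterol, ribosomal protein, zinc finger and serpin lists changed sign under both kinds of scaling factor, and those of the replication and splicing lists under median-of-ratios factors alone. Numbered zinc finger genes higher in BMAC went from 11 to 19 with median-of-ratios factors, secretory genes from 10 to 16 and translation genes from 11 to 17. Depth limits a fold where the lower library holds few counts: 3 counts stood for 0.198 CPM in BMAC and 0.194 CPM in PBMC. No paired analysis was possible because each population has 1 library and no number links them.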

Other observations

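Transcripts without a coding role or a settled name took part in the contrast. Of 848 long non-coding RNA genes at the floor 144 (17.0%) were higher in BMAC and 201 (23.7%) in PBMC, with a median log2 ratio of -0.31. Of 1308 genes known only by a LOC symbol 206 (15.7%) were higher in BMAC and 322 (24.6%) in PBMC. Protein-coding genes held 1444 (13.8%) and 1233 (11.8%) calls among 10488.

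Further families had these counts, to be set beside the 14.0% of all genes higher in BMAC and the 12.8% higher in PBMC. Of 8 laminin and basement membrane genes 7 were higher in BMAC and none in PBMC, all 8 at the floor in BMAC alone, with LAMA4 at 367 CPM in BMAC and 1.29 CPM in PBMC. Of 13 hyaluronan and proteoglycan genes 5 were higher in BMAC and 1 in PBMC. Of 34 actins, myosins and tropomyosins 16 were higher in BMAC and 2 in PBMC, and of 8 tubulins 3 and 1. The tubulins higher in BMAC (TUBA1A, TUBB2B and TUBB6) all overlap another row, and without such rows 0 of 4 were higher in BMAC, with a median of 0.12 against 1.74. Adhesion molecules of the immunoglobulin superfamily and selectins leaned to PBMC, with 9 of 19 against 2, and cytotoxic granule genes had 10 of 12 higher in PBMC and none in BMAC, with 10 at the floor in PBMC alone. Of 65 heat shock and cochaperone genes 7 (10.8%) were higher in BMAC and 1 (1.54%) in PBMC, both shares below those of all genes. The small heat shock protein HSPB6 had 15.1 CPM in BMAC and 0.453 CPM in PBMC.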
